A study of Mus musculus with 2 samples.

Results

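Transcripts of 10 genes of the NF-kB system were compared between control 4T1 cells and 4T1 cells co-cultured with M2 macrophages. 4T1 is a mammary carcinoma line of the mouse. The genes were the 5 NF-kB subunits (Nfkb1, Nfkb2, Rela, Relb and Rel), 4 genes of the IkB family (Nfkbia, Nfkbib, Nfkbie and Nfkbiz) and Tnfaip3, which encodes A20. They were taken by symbol from the 51912 Ensembl genes of the deposited table, and all 10 were found. In the co-culture, 4T1 cells occupied the lower chamber of a transwell and M2 (alternatively activated) macrophages the upper chamber for 3 days. Not given in the sources used here is whether an insert without macrophages stood over the control cells. Each group had 1 library, so every difference below compares 2 libraries, with no replicate error and no test. In the title of the co-cultured sample the cells are called 4T2, but 4T1 in its treatment label and its column, and the treatment label was followed.

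NF-kB is a family of dimeric transcription factors that IkB proteins hold inactive in the cytoplasm. Receptors for TNF, IL-1 and microbial products activate the IkB kinase complex, which marks IkB for degradation and frees the dimers to enter the nucleus. Among the genes that NF-kB switches on are those of its own inhibitors, Nfkbia and Tnfaip3, which form negative feedback loops, and in tumour cells the pathway is known for driving cytokine and survival genes.

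Values are TPM, the usual abundance unit of RNA sequencing, corrected for transcript length, so that levels of different genes can be set side by side. The log2 ratio of a gene is log2((co-culture TPM + 1)/(control TPM + 1)), a scale on which weakly expressed genes differ by less than their plain ratio. A gene counted as detected at a mean TPM of at least 1 over both libraries, and as 2-fold higher or lower at a log2 ratio of at least 1 or at most -1. Sequencing depth cannot be read from TPM. Of the 11258 detected genes 64.5% had a log2 ratio above 0, and the median ratio was 0.17, with 25th and 75th percentiles of -0.14 and 0.48. Centring the libraries on the median ratio of abundant genes moved that median by -0.11, and a TMM factor moved it by -0.17. Few macrophage transcripts were seen. From a list of 20 macrophage and myeloid markers, 3 were detected (Cd68, Cd14 and Coro1a), their list summed to 71.7 TPM in control cells and 42.1 TPM in co-cultured cells, and 9 were listed at 0 in both, among them Ptprc, Adgre1 and Itgam. None of 10 M2 markers was detected. The epithelial keratin Krt8 had 548 TPM in control cells and 630 TPM in co-cultured cells, while Epcam was listed at 0 in both and Cdh1 was below 1 TPM.

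Tnfaip3 was the member that differed most between the libraries. All 10 members were detected. Tnfaip3 was at least 2-fold higher in co-culture and no member was 2-fold lower, which is 10% of the members. Over all detected genes 4.95% were 2-fold higher and 2.14% were 2-fold lower. With the median ratio scaling the share of higher genes among those past the threshold was 58.1%, and with the TMM factor 49.4%, against 69.8% as deposited, and Tnfaip3 was the only member past the threshold under each. The median log2 ratio of the members was 0.13, below the median of all detected genes, and it was 0.13 without Tnfaip3 as well. Of the 10 members 6 had a ratio above 0 and 4 had a ratio below 0. Measured against the spread of all detected genes, 4 members lay between the 25th and 75th percentiles, 3 lay above (Tnfaip3, Nfkb1 and Nfkbia) and 3 below (Nfkbib, Nfkbiz and Relb). At the lower threshold of a log2 ratio of at least 0.5, those first 3 genes were higher, against 23.8% of detected genes, and at a ratio of at most -0.5 no member was lower, against 8.22%. With the TMM factor Nfkb1 (0.45) and Nfkbia (0.39) fell short of 0.5, and with the median ratio scaling Nfkbia (0.46) did.

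**Figure D1:**
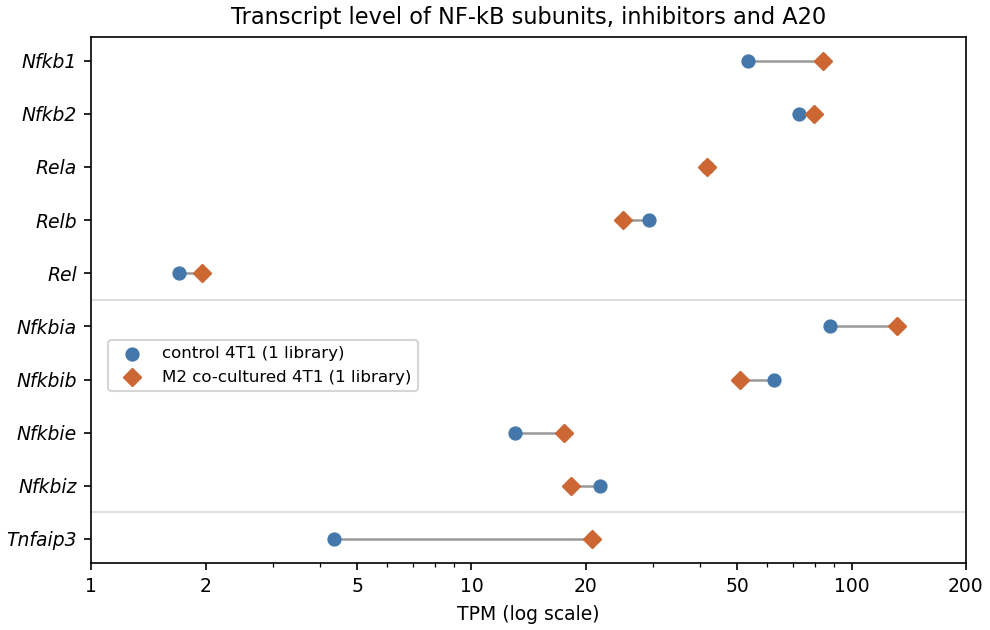
TPM on a log scale for each of the 10 genes, with circles for the control library and diamonds for the co-culture library, 1 library each, and grey lines joining the values of a gene. Tnfaip3 has the longest line, from 4.35 to 20.7 TPM, while the circle of Rela lies under its diamond.

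A20 is an enzyme that edits ubiquitin chains on signalling proteins upstream of the IkB kinases and so ends NF-kB activation. Tnfaip3 (ENSMUSG00000019850) lies on chromosome 10 of GRCm38 from 19000910 to 19015657 on the minus strand. It had 4.35 TPM in control cells and 20.7 TPM in co-cultured cells, so that the co-culture value was 4.77 times the control value. The co-culture library was the high one, and with 1 library per group the spread around either value is unknown. In bulk RNA, more cells with a transcript and more of it per cell cannot be told apart. The log2 ratio was 2.02, and 72 of the 11258 detected genes had a larger one. Relative to the median of detected genes the ratio was 1.86. In the control Tnfaip3 had the lowest level of the 10 genes but that of Rel, and it exceeded 23.0% of detected genes. In co-culture it exceeded 57.6% of them and stood above Nfkbiz and Nfkbie. Tnfaip3 transcripts numbered 0.104 per Rela transcript in the control and 0.498 in co-culture, as a ratio of TPM.

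The kB site, the DNA sequence that NF-kB dimers bind, was looked for in the RefSeq promoter windows of the members (assembly GRCm38.p6), which reach from 250 bases before a start of transcription to 50 bases after it. The table held windows for 7 of the 10 genes. Nfkb1, Relb and Nfkbiz had none in it. Matches to the kB consensus on either strand were found in 5 of these 7 genes (Tnfaip3, Nfkbia, Nfkb2, Rel and Nfkbie), in 7 of their 10 windows. The windows of the middle and farthest downstream starts of Nfkb2 overlap and share a site. Over all 32851 windows 8.46% held a match, and of all genes with a window 9.55% did. The narrower motif GGGNNTTTCC, searched on both strands, matched within the consensus matches in these windows. It was found in 4 of the 7 genes (Tnfaip3, Nfkbia, Nfkb2 and Rel), against 1.89% of all genes with a window and 1.63% of all windows. The members' windows with matches had a GC content of 56.7% to 75%, above the median of 52.7% over all windows. Those without a match had 71.3% (Rela), 56.3% (Nfkbib) and 47% (second start of Tnfaip3). A match describes letters in the reference genome and is no measurement of binding. Gene spans in this report come from GENCODE, whose starts can differ from those of RefSeq. The matches of Tnfaip3 and Nfkb2 lie before or near a RefSeq start but within the spans given for these genes.

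A selection of the matches is printed, because they are sequence features shared by Tnfaip3 and Nfkbia, which had higher values in co-culture, by Nfkb2 and Rel, which differed little, and by Nfkbie, which lay between. Left out are one more site of Nfkb2 before its start farthest upstream and one before its middle start. Each printed site is read 5′ to 3′ on the gene's strand with its surroundings, and capitals mark the bases covered by a match to the kB consensus on either strand.
Tnfaip3, chr10:19015516-19015545, first capital 125 bases before the start: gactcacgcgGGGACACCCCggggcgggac
Tnfaip3, chr10:19015403-19015432, first capital 12 bases before the start: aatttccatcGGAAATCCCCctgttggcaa
Nfkbia, chr12:55492657-55492686, first capital 29 bases before the start: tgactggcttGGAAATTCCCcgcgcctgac
Nfkb2, chr19:46304716-46304745, first capital 11 bases before the start farthest upstream: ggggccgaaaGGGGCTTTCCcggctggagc
Nfkb2, chr19:46305695-46305724, first capital 225 bases before the start farthest downstream: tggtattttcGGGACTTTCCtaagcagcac
Rel, chr11:23771042-23771070, first capital 92 bases before the start: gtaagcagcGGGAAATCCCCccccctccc
Nfkbie, chr17:45555584-45555613, first capital 106 bases before the start: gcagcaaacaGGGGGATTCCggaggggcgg

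**Figure D2:**
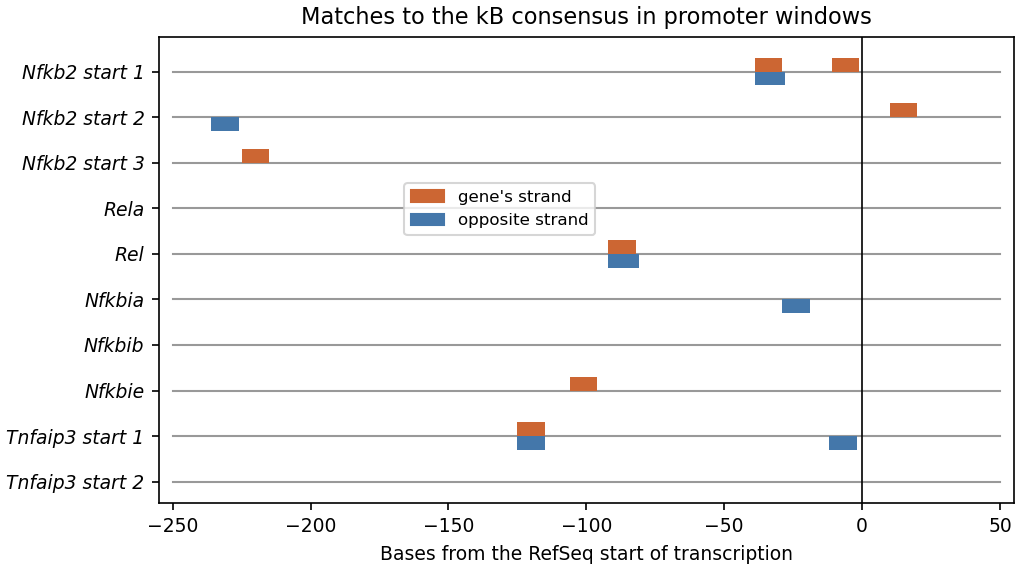
Positions of matches to the kB consensus in the 10 RefSeq promoter windows of 7 member genes, in bases from the start of transcription (vertical line), with boxes above the line for the gene's strand and below it for the opposite strand. Rela, Nfkbib and the second start of Tnfaip3 have no match, and in Tnfaip3, Nfkbia and Nfkb2 a match lies within 30 bases before a start.

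Among the subunits, Nfkb1 alone had a ratio above the 75th percentile of detected genes. Nfkb1 encodes a precursor that is processed to the DNA-binding subunit p50, which lacks an activation domain of its own. The gene (ENSMUSG00000028163; chromosome 3, 135584655 to 135691547) had 53.5 TPM in control cells and 83.9 TPM in co-cultured cells, a log2 ratio of 0.64. The co-culture value was 1.57 times the control value and below the 2-fold threshold. Of all detected genes 1763 had a larger ratio.

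Nfkb2 encodes the precursor of p52, the DNA-binding subunit of the non-canonical pathway. Nfkb2 (ENSMUSG00000025225; chromosome 19, 46304320 to 46312385) had 72.6 TPM in control cells and 79.5 TPM in co-cultured cells. Its log2 ratio of 0.13 lay near the median of all genes, and it was -0.06 with the TMM factor. Its exons share 299 bases with those of Psd on the opposite strand, which had 3.04 TPM in control cells and 6.67 TPM in co-cultured cells. They also share 531 bases with AC114539.1, a noncoding gene on the opposite strand without a value in the deposited data. The strandedness of the counting was not given in the sources used here.

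Rela and Relb encode subunits with activation domains. Rela, the main activating partner of p50 (ENSMUSG00000024927; chromosome 19, 5637483 to 5648130), had 41.7 TPM in control cells and 41.6 TPM in co-cultured cells. These values were nearly the same. The log2 ratio was 0.00 to 2 decimals, and it was 0.02 after rescaling that left out mitochondrial transcripts and the 20 most abundant genes. Relb, the partner of p52 (ENSMUSG00000002983; chromosome 7, 19606217 to 19629438), had 29.32 TPM in control cells and 25.01 TPM in co-cultured cells. Its log2 ratio was -0.22, lower in co-culture and within 2-fold.

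Rel, which encodes c-Rel, a subunit best known from lymphocytes and other blood cells, had the lowest level of the members in both libraries. Rel (ENSMUSG00000020275; chromosome 11, 23736847 to 23770970) had 1.70 TPM in control cells and 1.96 TPM in co-cultured cells, a log2 ratio of 0.13. Its level in co-culture exceeded 6.48% of detected genes.

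The subunit transcripts summed to 199 TPM in control cells and 232 TPM in co-cultured cells, and the make-up of this sum differed mostly through Nfkb1. Nfkb1 made up 26.9% of the summed subunit TPM in control cells and 36.2% in co-culture, a difference of 9.27 percentage points. The share of Nfkb2 was 36.5% in the control and 34.3% in co-culture. Rela made up 20.98% and 17.94%, Relb 14.8% and 10.8%, and Rel 0.855% and 0.845%. The ratio of Nfkb1 to Rela TPM was 1.28 in the control and 2.02 in co-culture. Nfkb2 was thus the most abundant subunit transcript in the control and Nfkb1 in co-culture.

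The IkB genes did not differ in a common direction. Nfkbia encodes IkB alpha, the inhibitor that is degraded on stimulation and made anew under NF-kB control. Nfkbia (ENSMUSG00000021025; chromosome 12, 55489410 to 55492647) had 87.9 TPM in control cells and 132 TPM in co-cultured cells, the highest level of the 10 genes in both. The co-culture value was 1.497 times the control value and the log2 ratio was 0.58, below the threshold. A kB match lies 29 bases before its start, in the sequence printed above.

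Nfkbie encodes IkB epsilon, another cytoplasmic inhibitor under NF-kB control. Nfkbie (ENSMUSG00000023947; chromosome 17, 45555703 to 45563169) had 13.01 TPM in control cells and 17.48 TPM in co-cultured cells, a log2 ratio of 0.40. The co-culture library was again the higher one, by less than 2-fold.

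Nfkbib encodes IkB beta, which is degraded and replaced more slowly than IkB alpha. Nfkbib (ENSMUSG00000030595; chromosome 7, 28758251 to 28767512) had 62.6 TPM in control cells and 51.0 TPM in co-cultured cells. With a log2 ratio of -0.29 it was the lowest of the 10 genes on that scale. Its exons share 42 bases with those of Sirt2 on the opposite strand, and Sirt2 had 53.4 TPM in control cells and 38.4 TPM in co-cultured cells. The part of such shared reads in the value of Nfkbib was not tested.

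Nfkbiz encodes IkB zeta, a nuclear protein that acts mainly with p50 and is needed for secondary targets such as Lcn2. Nfkbiz (ENSMUSG00000035356; chromosome 16, 55811375 to 55838899) had 21.8 TPM in control cells and 18.3 TPM in co-cultured cells, a log2 ratio of -0.24. Lcn2 itself had 207 TPM in control cells and 349 TPM in co-cultured cells, so this gene and Nfkbiz differed in opposite directions.

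The IkB transcripts summed to 185 TPM in control cells and 218 TPM in co-cultured cells. Nfkbia made up 47.4% of this sum in the control and 60.3% in co-culture, and Nfkbib 33.8% and 23.3%. The ratio of Nfkbia to Nfkbib TPM was 1.404 in the control and 2.58 in co-culture, and that of Nfkbia to Rela TPM was 2.11 and 3.16. The summed IkB transcripts amounted to 0.933 of the summed subunit transcripts in the control and 0.941 in co-culture. The sums kept nearly the same proportion while the genes within them differed in opposite directions.

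**Figure D3:**
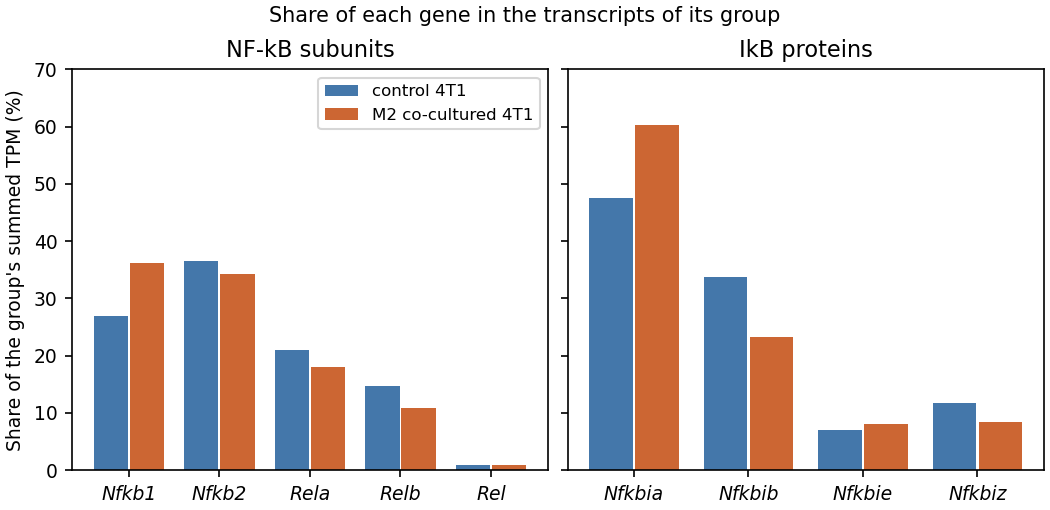
Share of each gene in the summed TPM of the 5 subunit genes (left) and the 4 IkB genes (right), in percent, with 1 bar per library. In co-culture the bars of Nfkb1 (36.2%) and Nfkbia (60.3%) are taller than in the control (26.9% and 47.4%), and that of Nfkbib is shorter (23.3% against 33.8%).

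Ordered by level, the control library read Nfkbia, Nfkb2, Nfkbib, Nfkb1, Rela, Relb, Nfkbiz, Nfkbie, Tnfaip3 and Rel. The co-culture library read Nfkbia, Nfkb1, Nfkb2, Nfkbib, Rela, Relb, Tnfaip3, Nfkbiz, Nfkbie and Rel. Neighbours in these orders cannot be told apart beyond replicate spread, since there is none. Between these orders Nfkb1 passed Nfkbib and Nfkb2, Tnfaip3 passed Nfkbie and Nfkbiz, and the others kept their order.

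**Figure D4:**
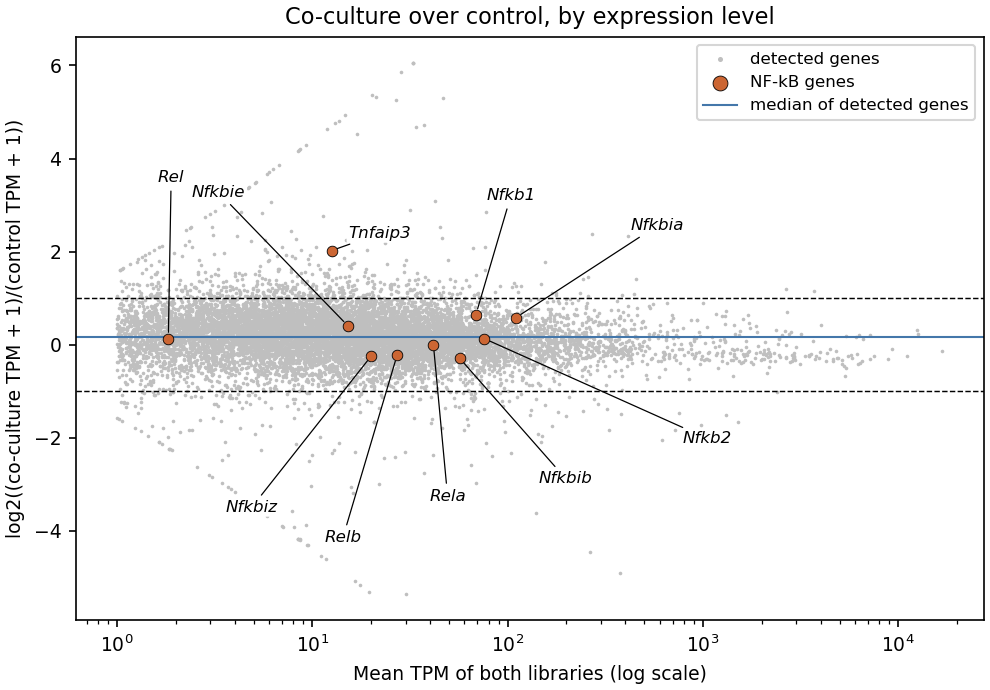
Log2 ratio of co-culture over control against mean TPM (log scale) for the 11258 detected genes in grey and the 10 NF-kB genes in orange, with the median ratio of 0.17 as a blue line and the 2-fold thresholds dashed. Tnfaip3 lies at 2.02, above the upper threshold, and the other 9 genes lie between -0.29 and 0.64.

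Genes whose pair of values was like that of Tnfaip3 were found by the distance in log2(TPM + 1) over both libraries, among 10366 other detected protein-coding genes. Ppp1r10, a regulatory subunit of protein phosphatase 1, was nearest, with 4.71 TPM in control cells and 20.6 TPM in co-cultured cells (distance 0.09). Etnk1, an ethanolamine kinase, was also close, with 4.45 TPM and 17.0 TPM (distance 0.28). With 2 libraries the distance rests on 2 values per gene, so nearness does not show shared control.

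The rest of the pathway was described from 6 lists by role. No ligand gene reached the mean TPM of 1 over both libraries that counted as detected. Of 14 ligand genes 12 were found in the table, 8 of them listed at 0 in both libraries, Tnf among them. Lta had 0.98 TPM in control cells and 0.37 TPM in co-cultured cells, while Il1a had 0.29 TPM and 0.72 TPM. The ligand list summed to 1.4 TPM in control cells and 1.2 TPM in co-cultured cells. Il36a and Il36g matched no row. Of 19 receptor genes 14 were detected, 2 of them at least 2-fold higher and none 2-fold lower (4.95% and 2.14% over all detected genes). The median log2 ratio of the receptors was 0.46. Il1r1, the signalling receptor for IL-1, had 3.06 TPM in control cells and 9.06 TPM in co-cultured cells (log2 ratio 1.31). Tlr3, a sensor of double-stranded RNA, had 0.63 TPM and 2.34 TPM (1.03), a ratio below the threshold with the median ratio scaling and the TMM factor. Tlr4, the receptor for lipopolysaccharide, had 1.78 TPM and 4.42 TPM, and Tlr6, which pairs with Tlr2, had 0.93 TPM and 2.54 TPM. Both had log2 ratios under 1 (0.96 and 0.88), while their plain TPM ratios were 2.48 and 2.73. These 3 Toll-like receptor genes stayed below 5 TPM. Tlr3 and Tlr6 were below 1 TPM in the control and counted as detected only through their co-culture values.

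No adaptor, ubiquitin ligase or kinase gene passed the 2-fold threshold on the log2 ratio, although some of low level came close. All 24 genes of the adaptor and ubiquitin ligase list, which also holds kinases such as Irak4, were detected. Of these, 17 were above 0 and 7 below 0, with a median of 0.23. Traf5, an adaptor of TNF receptor family members, had 6.96 TPM in control cells and 14.1 TPM in co-cultured cells (log2 ratio 0.92), and Tirap, an adaptor of Toll-like receptors, had 6.73 TPM and 13.03 TPM (0.86). Rnf31, the catalytic subunit of the linear ubiquitin chain assembly complex, had a log2 ratio of -0.61 and Ticam1, the adaptor of Tlr3, one of -0.48. All 11 genes of the kinase list, which also holds partner proteins of kinases such as Tab1, were detected, with a median of 0.20. Ikbke, an IkB kinase-related enzyme, had 7.17 TPM in control cells and 15.0 TPM in co-cultured cells (0.97). Map3k8, a kinase bound by the Nfkb1 precursor, had 0.64 TPM and 2.04 TPM (0.89) and counted as detected only through its co-culture value. Tbk1 had a ratio of 0.52. Ikbkg, the regulatory subunit of the IkB kinase complex, had the lowest log2 ratio of the kinase list (-0.77). It had 14.8 TPM in control cells and 8.23 TPM in co-cultured cells.

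No partner of A20 and no other inhibitor was 2-fold different. Of 17 genes 15 were detected, 10 above 0 and 5 below 0, none of them 2-fold different, with a median of 0.30. Tnip1, an adaptor that brings A20 to its substrates, had 37.1 TPM in control cells and 56.2 TPM in co-cultured cells (log2 ratio 0.59). Tnip2, a related adaptor, had 9.60 TPM and 6.32 TPM (-0.53). Nkrf, a nuclear repressor of NF-kB targets, had a ratio of 0.58 and N4bp1, an inhibitor of NF-kB signalling, one of 0.54. Bcl3, a nuclear IkB protein that acts with p50 and p52, had 8.33 TPM and 11.3 TPM.

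Several known NF-kB target genes had higher values in co-culture. Of 32 targets 26 were detected, 8 of them at least 2-fold higher (30.8%) and none 2-fold lower. Their median log2 ratio was 0.69, and 17 were above 0 and 9 below 0. The shares over all detected genes were 4.95% higher and 2.14% lower, with a median of 0.17. Over the 64 detected genes of the other pathway lists 2 were 2-fold higher and none was 2-fold lower, with a median of 0.31. With a pseudocount of 0.1 that number was 8, and with one of 5 it was 0. The target list was drawn up with earlier results of these data known, and its genes answer to many other factors. Its count is therefore not independent evidence of a direction. Genes were sorted by role, so known targets also stand outside this list, among them Tnfaip3, Nfkbia and Nfkbie of the members. The split into targets and other genes is thus not a clean one. Csf3, which encodes granulocyte colony-stimulating factor, had 18.02 TPM in control cells and 137 TPM in co-cultured cells (log2 ratio 2.86). Ier3, an early-response gene of cell survival, had 136 TPM and 694 TPM (2.34). Plau, which encodes urokinase, had 24.9 TPM and 108 TPM (2.07), and Mmp13, a collagenase, had 3.92 TPM and 15.4 TPM (1.73). The ratio of Tnfaip3 was close to that of Plau. Other targets had lower values in co-culture, among them Gadd45b with 12.9 TPM in control cells and 7.22 TPM in co-cultured cells, and Ccl20 with 39.7 TPM and 24.4 TPM. Sod2, a mitochondrial superoxide dismutase induced by NF-kB, had 26.6 TPM and 27.3 TPM. Icam1 was not detected, with 0.10 TPM and 0.36 TPM.

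**Figure D5:**
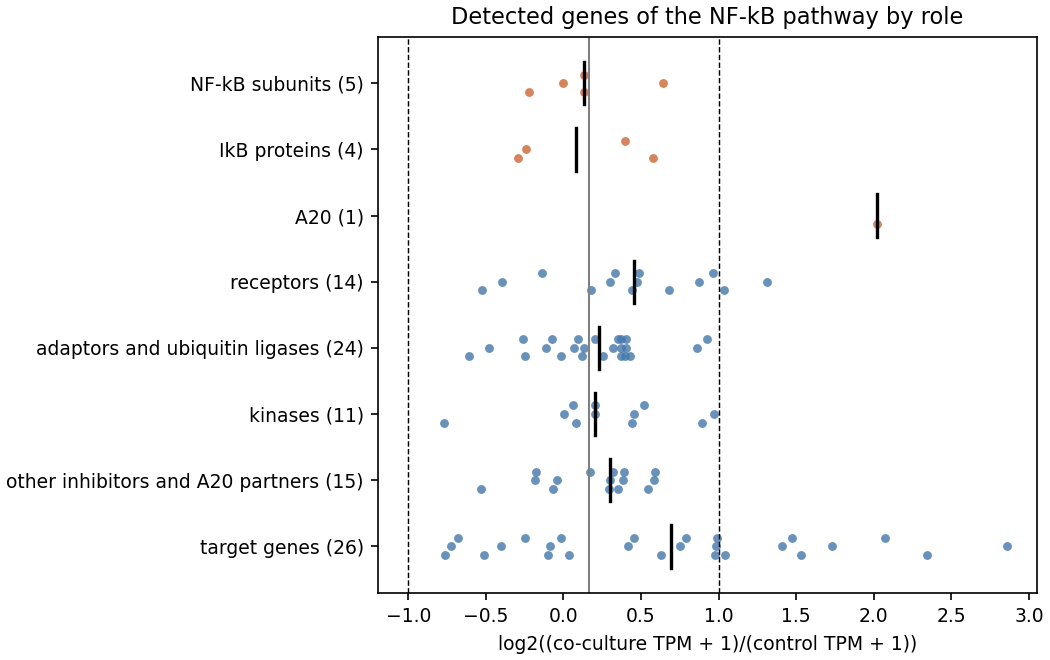
Log2 ratio of co-culture over control for detected genes, 1 point per gene, in rows by role with the number of genes in brackets, orange for the 10 members and blue for the other lists. Black ticks are list medians, the grey line is the median of all detected genes (0.17) and the dashed lines are the 2-fold thresholds, which 8 target genes, 2 receptors and Tnfaip3 pass on the right and no gene passes on the left.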

How the data were processed

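RNA of 4T1 cells was sequenced in 2 libraries, 1 per group, and the authors deposited 1 table of TPM values rounded to 2 decimals. HISAT2 2.1.0, RSEM 1.2.31 and the build GRCm38.p5 are named, without roles, in the submitters' processing notes. The annotation, strandedness and filters were not given in the sources used here. Groups came from the treatment labels. Symbols and positions came from GENCODE M21 (GRCm38), which named 51633 of 51912 Ensembl identifiers. The 884 rows with assembled (MSTRG) identifiers were left out. TPM carries no depth, so no interval or detection floor was computed.

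Log2 ratios used a pseudocount of 1. No test was possible with 1 library per group. From each pathway list the 4 detected genes with the largest absolute ratio were named. Il1a, Lta, Tnf, Bcl3, Lcn2, Gadd45b, Ccl20, Sod2 and Icam1 were added after their values were seen. The 3 genes nearest to Tnfaip3 in both values were also to be named, and 1 gene that the rule selects is not reported here. The members and lists were chosen with earlier results of these data known. Alternatives were pseudocounts of 0.1 and 5, no filter, a mean TPM of at least 10, a log2 threshold of 0.5, protein-coding genes only and 3 scalings (median ratio, unweighted TMM with trims of 30% and 5%, and rescaling without mitochondrial and the 20 most abundant genes). Calculations used Python 3.11.15 with pandas 2.3.3 and numpy 2.4.6 and were tested on simulated data. The simulation left out genes of low control level, Tnfaip3 and Rel among them. The kB consensus was GGG, a purine, any 2 bases, 2 pyrimidines and CC.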

Additional observations from a re-analysis of the deposited data

How the results depend on the processing

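Tnfaip3 was 2-fold higher and no member 2-fold lower under the 5 alternatives that recompute ratios (pseudocounts and scalings). The log2 ratio of Tnfaip3 then lay between 1.46 (pseudocount 5) and 2.23 (pseudocount 0.1). The other alternatives changed filters or the threshold and left that ratio as it was. A log2 threshold of 0.5 gave 3 members higher (Tnfaip3, Nfkb1 and Nfkbia; 23.8% of all detected genes were then higher) and none lower. The sign of Nfkb2 turned with the TMM factor and that of Rela with the rescaling, as given above. The median ratio of the members was 0.036 with the median ratio scaling, -0.024 with the TMM factor, 0.152 after rescaling, 0.163 with a pseudocount of 0.1 and 0.089 with a pseudocount of 5. The lowest ratios of Nfkb1, Nfkbia, Nfkbib, Relb and Rela were those with the TMM factor, at 0.45, 0.39, -0.48, -0.40 and -0.19.

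Of all detected genes 557 were 2-fold higher and 241 lower. The number higher was 2674 at a threshold of 0.5, 244 at a mean TPM of at least 10, 886 and 199 with pseudocounts of 0.1 and 5, and 345 with the TMM factor. The number lower was 925 at a threshold of 0.5, 120 at a mean TPM of at least 10, 129 with a pseudocount of 5 and 155 among protein-coding genes. Counts for targets and signalling genes were added after seeing the data. Target genes higher numbered 14 and lower 4 at a threshold of 0.5, and 5 were higher at a mean TPM of at least 10. Signalling genes higher numbered 13, with 4 lower, at a threshold of 0.5. They numbered 0 at a mean TPM of at least 10 and with a pseudocount of 5, 1 with the median ratio scaling and with the TMM factor, 8 with a pseudocount of 0.1 and 5 after rescaling. Stricter filters test fewer genes, and the cause of the other shifts was not tested. No paired analysis was possible because each group had 1 library. Depth is unknown, so the precision of low values such as those of Rel and Tnfaip3 cannot be given.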
